A study of Arabidopsis thaliana with 12 samples.

Results

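WRKY transcription factors form one of the large families of plant regulatory proteins, and 48 genes of this family from *Arabidopsis thaliana* are described here, out of the 37813 genes in the deposited count table. They were taken by gene identifier from a list of members of WRKY groups I, IIa, IIb, IIc, IId, IIe and III, a rule that uses no expression value. The list itself was chosen with earlier results of these data known. It is not the whole family, since 20 further genes that the reference names WRKY and a number are not on it. Of the 48 genes, 47 passed the filter on low counts. The libraries were made from whole rosettes of 4-week-old plants grown in an 8 h photoperiod. There were 4 groups of 3 libraries, namely *jac1* harvested 30 min after UV-C at 100 mJ cm-2, non-treated *jac1*, the wild type 30 min after the same irradiation, and the non-treated wild type. The wild type was Columbia-0 gl1 and *jac1*, which lacks a functional J-domain protein needed for chloroplast movements, was in the same background, so that all 4 groups shared the gl1 (glabrous) background. Each library came from a separate biological replicate in which at least 4 rosettes had been pooled, so that a value is a mean over plants and over all cell types of the rosette. In such bulk samples, fewer cells of one type and less RNA per cell cannot be told apart.

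WRKY proteins share a DNA-binding domain with a conserved signature and a zinc finger, and they bind the W-box, a short element with the core TGAC that is found in the promoters of many defence genes and of the WRKY genes themselves. The groups are told apart by the number of domains and the type of zinc finger: group I carries 2 domains, groups IIa to IIe carry 1 domain with the same kind of finger, and group III carries 1 domain with another. In leaves, many WRKY genes are transcribed within minutes of wounding, of a microbial elicitor or of an oxidative burst, downstream of mitogen-activated protein kinases and calcium, and their products act in salicylic acid and jasmonate signalling, camalexin synthesis, senescence and abiotic stress. UV-C damages DNA and causes an oxidative burst in chloroplasts, and the comparison of treated with non-treated rosettes in both genotypes asks which transcripts respond early and whether JAC1 bears on that response.

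W-boxes in the members' own promoters are shown first because this is the element the encoded proteins bind. The letters TTGACC and TTGACT were searched on both strands from 250 bases before to 50 bases after each annotated gene start in TAIR10.1, and the members' coordinates in the deposited table were identical to that build. At least 1 match was found in 18 of the 48 members (37.5%), against 32.4% of 27438 nuclear protein-coding genes, and at least 2 matches in 9 members (18.8%), against 7.70%. The 4 members with 2 or more matches whose transcripts were higher after UV-C in both genotypes were WRKY30, WRKY33, WRKY53 and WRKY15, and their 250 bases before the gene start are given 5′ to 3′ on the strand of the gene, with each match in capitals and in reverse complement where it lay on the other strand.
WRKY30 (AT5G24110), chr5:8154711-8154960, minus strand: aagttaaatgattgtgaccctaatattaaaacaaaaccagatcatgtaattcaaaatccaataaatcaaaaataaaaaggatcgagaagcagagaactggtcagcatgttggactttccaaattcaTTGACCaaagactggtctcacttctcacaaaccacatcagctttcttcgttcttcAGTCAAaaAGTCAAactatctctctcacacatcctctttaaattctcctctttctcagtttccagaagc
WRKY33 (AT2G38470), chr2:16107985-16108234, plus strand: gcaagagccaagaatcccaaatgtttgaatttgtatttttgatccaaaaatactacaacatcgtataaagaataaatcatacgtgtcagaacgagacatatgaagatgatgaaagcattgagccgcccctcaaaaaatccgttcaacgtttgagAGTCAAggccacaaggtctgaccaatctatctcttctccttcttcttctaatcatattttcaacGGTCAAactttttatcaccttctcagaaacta
WRKY53 (AT4G23810), chr4:12393983-12394232, minus strand: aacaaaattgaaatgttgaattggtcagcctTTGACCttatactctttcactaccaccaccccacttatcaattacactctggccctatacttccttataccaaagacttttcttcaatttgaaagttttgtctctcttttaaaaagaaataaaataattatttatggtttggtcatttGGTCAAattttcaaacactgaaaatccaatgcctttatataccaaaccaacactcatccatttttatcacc
WRKY15 (AT2G23320), chr2:9924636-9924885, plus strand: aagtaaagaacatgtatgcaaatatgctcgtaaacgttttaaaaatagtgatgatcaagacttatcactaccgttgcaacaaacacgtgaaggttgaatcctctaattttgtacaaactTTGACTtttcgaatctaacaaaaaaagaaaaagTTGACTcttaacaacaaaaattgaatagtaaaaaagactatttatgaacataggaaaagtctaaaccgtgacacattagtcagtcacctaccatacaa
WRKY30 had matches beginning 124, 69 and 61 bases before the gene start. The matches of WRKY33 began 96 and 32 bases before the start, those of WRKY53 began 219 and 71 bases before it, and those of WRKY15 began 131 and 98 bases before it. A match is only a match of letters and says nothing of binding in these leaves.

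**Figure D1:**
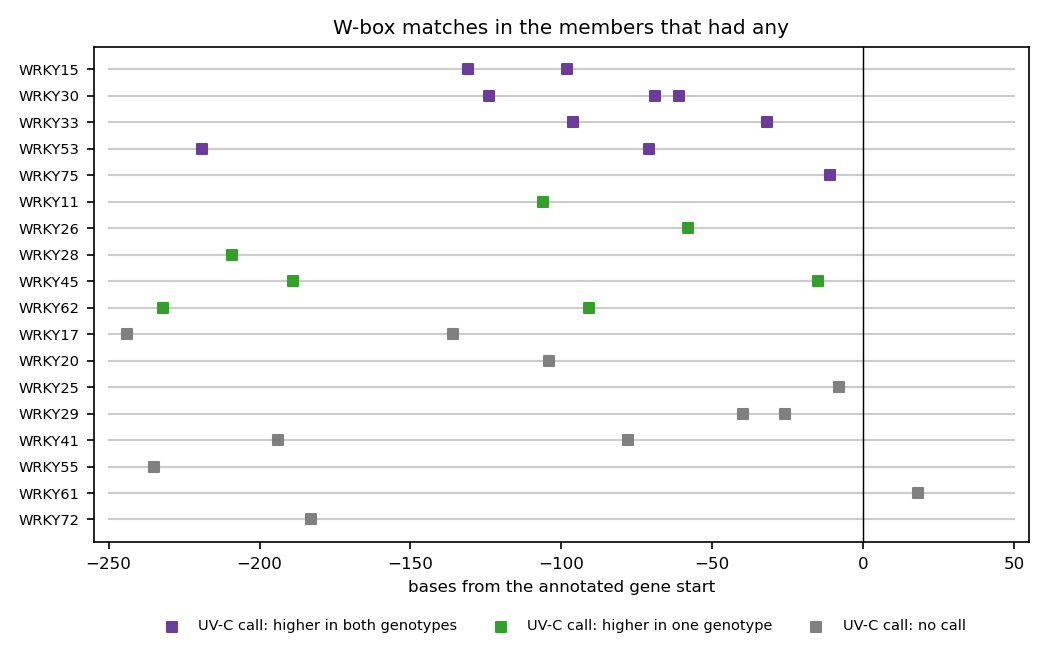
Positions of TTGACC and TTGACT matches, on either strand, in the 18 members that had any, in bases from the annotated gene start (negative values lie upstream), with colours for the UV-C call of the member. WRKY30 held 3 matches, all within 124 bases of the start, and the single match of WRKY61 lay 18 bases into the gene.

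A second set of sequences marks where 2 members depart from the family. The codons of the conserved signature of the WRKY domain are given for the paralogs WRKY50 and WRKY51 and, for comparison, for WRKY45 and WRKY75 of the same group IIc, with the sixth codon in capitals.
WRKY50 (AT5G26170), chr5:9147579-9147599, minus strand: tggagaaagtatgggAAGaag
WRKY51 (AT5G64810), chr5:25908864-25908884, plus strand: tggaggaagtatggcAAGaaa
WRKY45 (AT3G01970), chr3:326932-326952, minus strand: tggaggaagtacggcCAAaaa
WRKY75 (AT5G13080), chr5:4150786-4150806, minus strand: tggaggaaatatggcCAAaag
WRKY45 and WRKY75 have a glutamine codon at this place, as do all other members in each copy of the domain, whereas WRKY50 and WRKY51 have a lysine codon. All 8 members of group I had 2 copies of the signature in their coding sequence and the other 40 had 1 copy. Each stretch lies within a single coding exon.

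Library totals ran between 21939540 and 27194762 reads in UV-C treated *jac1*, between 33999174 and 39098227 in non-treated *jac1*, between 20897905 and 24461667 in the UV-C treated wild type, and between 34496078 and 40445085 in the non-treated wild type, so that treated libraries were shallower in both genotypes. Reads of chloroplast-encoded genes made up between 1.64 and 2.34% of treated libraries and between 0.0172 and 0.0219% of non-treated ones. JAC1 itself had 169, 181 and 168 normalised counts per 1000000 reads (CPM) in treated *jac1*, 135, 161 and 157 in non-treated *jac1*, 128, 152 and 148 in the treated wild type and 88.1, 93.8 and 99.2 in the non-treated wild type, so the transcript was present in the mutant and does not check the labels. The leaf gene RBCS1A stood between 14699.7 and 19759 CPM, the root hair gene RHD6 had no read, and the floral genes AP3, PI and AG stayed at or below 1.38 CPM, while PYK10, listed as a root gene, was present at between 279 and 450.0 CPM. Clock genes set the non-treated wild type apart. TOC1 had 15.5, 15.7 and 15.7 CPM in treated *jac1*, 24.3, 26.4 and 21.4 in non-treated *jac1*, 22.9, 18.4 and 19.1 in the treated wild type and 89.8, 85.0 and 88.9 in the non-treated wild type. After UV-C, 4 of 6 clock genes were differentially expressed in each genotype, against 13.7% of all genes in *jac1* and 9.26% in the wild type. The part of the clock in the results on the members was not tested.

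After UV-C, 18 of the 47 members tested were differentially expressed genes (DEGs) in *jac1*, all of them higher, and 15 were DEGs in the wild type, 14 of them higher and 1 lower. Scaled by library totals alone, 16 were higher and 4 lower in *jac1*, and 13 were higher and 1 lower in the wild type. A DEG here had an adjusted p under 0.01 and an absolute log2 fold change (log2 FC) over 1. The members' share was 38.3% in *jac1*, against 13.7% of all 20099 genes, and 31.9% in the wild type, against 9.26% of all genes. The 10 further WRKY genes that could be tested, none of them a DEG, are not counted in the members' share. By direction, 8.96% of all genes were called higher in *jac1*, and 7% were called higher and 2.26% lower in the wild type. The summed level of the 48 genes was between 1201 and 1374 CPM in treated *jac1*, against between 408 and 482 CPM in non-treated *jac1*, and between 1189 and 1306 CPM in the treated wild type, against between 412 and 470.2 CPM in the non-treated wild type. Treated and non-treated sums did not overlap in either genotype, and the sums of the 2 genotypes overlapped in each condition. The median log2 FC over the members was 0.51 in *jac1*, beside 0.05 over all genes, and 0.45 in the wild type, or 0.37 without the 2 members at the floor there, beside a value within 0.01 of 0 over all genes. By these thresholds the rise was uneven over the family, since 13 members were higher in both genotypes and 27 were called in neither. Some of the 27 missed only the fold threshold, in either direction. In *jac1*, examples by edgeR's quasi-likelihood test were WRKY6 (log2 FC 0.86, adjusted p = 1.41e-04) and WRKY39 (−0.75, adjusted p = 6.97e-07). WRKY11, WRKY26, WRKY28, WRKY45 and WRKY62 were DEGs in *jac1* and not in the wild type, and WRKY38 and WRKY3 in the wild type and not in *jac1*. Of these, WRKY26 and WRKY28 passed the test of the difference between the responses (the interaction), and the others did not, with an adjusted p of 0.214 for WRKY11, 0.024 for WRKY45, 0.857 for WRKY62, 0.0137 for WRKY38 and 0.247 for WRKY3. Touch-responsive genes rose beside the family, with 5 of 7 called higher in *jac1* and 7 of 7 in the wild type. Their summed level was between 1207 and 1330.02 CPM in treated *jac1*, against between 188 and 256 CPM in non-treated *jac1*, and between 1029 and 1107 CPM in the treated wild type, against between 73.9 and 142 CPM in the wild type without UV-C, and their part in the members' rise was not tested.

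By group, the calls were uneven, beside 13.7% of all genes that were DEGs in *jac1* and 9.26% in the wild type. Of group III, 6 of 8 members tested were DEGs in *jac1* and 6 of 8 in the wild type, and the 5 that were called in both had log2 FC between 2.47 and 5.59 in *jac1* and between 2.62 and 6.03 in the wild type. Of group IIa, 2 of 3 were DEGs in each genotype. Group IIc had 5 of 10 in *jac1* and 3 of 10 in the wild type, group IId 2 and 1 of 7, group I 2 and 2 of 8 and group IIe 1 and 1 of 5. None of the 6 members of group IIb was called in either genotype by edgeR's quasi-likelihood test. In each genotype 2 of them had an unadjusted p under 0.05. The share of all genes at that cut is not given, so this count is not read as a result about the group. WRKY72 of this group had at most 6 reads in any library, and the group's median log2 FC were −0.05 in *jac1* and 0.44 in the wild type. These are counts of few genes and no test of the groups against each other was made.

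**Figure D2:**
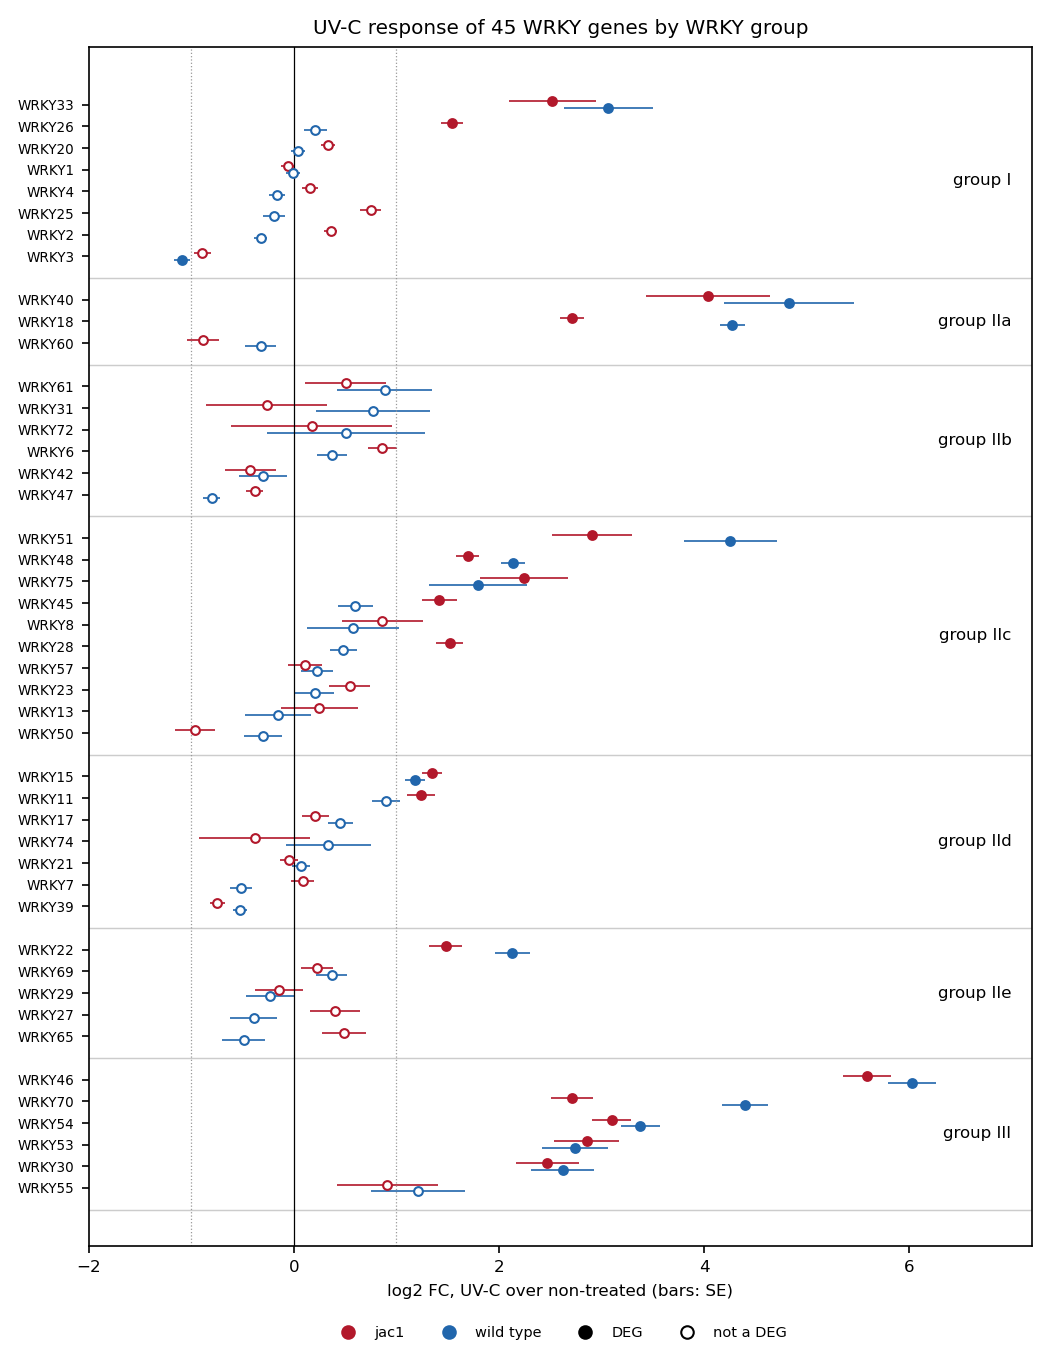
Log2 FC of UV-C treated over non-treated rosettes in *jac1* (red) and in the wild type (blue) for 45 members, by WRKY group, with bars of 1 SE from 3 libraries a group, filled points for DEGs and dotted lines at the fold threshold. WRKY46, WRKY40, WRKY70, WRKY18 and WRKY51 lay farthest to the right, group IIb held no filled point, and WRKY38 and WRKY62, which had 3 or fewer reads in each non-treated wild-type library, and WRKY41, which was not tested, are left out.

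Compared per transcript length, WRKY15 was the most abundant member before treatment, with 38.4 ± 5.04 fragments per kilobase of transcript and per unit of library size (FPKM) in *jac1* and 28.3 ± 3.25 in the wild type (mean ± SD, n = 3). After UV-C the order changed. WRKY40 came first, with 134 ± 11.7 FPKM in treated *jac1* and 141 ± 2.68 in the treated wild type, and WRKY70 had 119.7 ± 21.5 and 122 ± 14.7 FPKM in the same groups. The levels of these 2 genes did not differ beyond their spread in *jac1*. Behind them in treated *jac1* stood WRKY15, WRKY33 and WRKY46, with means of 97.9, 85.6 and 74.6 FPKM. In the treated wild type WRKY46 and WRKY33 had means of 86.3 and 85.8 FPKM, and WRKY15 came after them with 64.2.

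Group III contains the salicylic acid responsive regulators, and among its members above the floor of detection the largest change was that of WRKY46, which acts with WRKY70 and WRKY53 in basal resistance to *Pseudomonas syringae*. In *jac1*, WRKY46 had 90.0, 97.7 and 116 CPM after UV-C, against 1.19, 2.43 and 2.76 CPM without it. The treated wild type had 121, 110.1 and 120.0 CPM, against 1.09, 2.48 and 1.82 CPM in non-treated plants. Treated libraries lay far above non-treated ones in both genotypes, with log2 FC of 5.59 ± 0.23 in *jac1* and 6.03 ± 0.24 in the wild type (SE, adjusted p = 2.79e-10 and 1.56e-10). WRKY54, a close relative of WRKY70 that restrains senescence, had 11.2, 13.6 and 16.6 CPM in treated and 1.19, 1.74 and 1.93 CPM in non-treated *jac1*. Its wild-type values were 18.1, 13.9 and 17.02 CPM after UV-C and 1.63, 1.77 and 1.28 CPM without it, so treated libraries were above non-treated ones in both genotypes, with log2 FC of 3.10 ± 0.19 and 3.38 ± 0.19 (adjusted p = 1.59e-08 in *jac1* and 7.52e-09 in the wild type). WRKY70, a node between salicylic acid and jasmonate signalling, rose in both genotypes, and its values are given with the genotype comparison.

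WRKY53, which promotes leaf senescence, had 34.7, 37.8 and 37.2 CPM in treated *jac1*, against 2.76, 3.92 and 8.67 CPM in non-treated *jac1*. In the wild type it had 24.7, 24.7 and 28.5 CPM after UV-C and 2.13, 5.21 and 4.35 CPM without it. The third non-treated *jac1* library was the highest of its group, and the log2 FC of 2.86 ± 0.31 in *jac1* became 3.46 without it. The wild-type log2 FC was 2.74 ± 0.32 (adjusted p = 3.44e-06 in *jac1* and 1.16e-05 in the wild type). WRKY30, which responds to oxidative stress and whose upstream bases hold 3 W-box matches, was a low transcript with 4.51, 3.61 and 4.21 CPM in treated and 0.484, 0.654 and 1.11 CPM in non-treated *jac1*. The wild-type values of WRKY30 were 3.64, 3.78 and 4.97 CPM after UV-C and 1.02, 0.473 and 0.469 CPM without it, and the log2 FC were 2.47 ± 0.31 and 2.62 ± 0.31 (adjusted p = 1.15e-05 in *jac1* and 1.12e-05 in the wild type).

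The remaining group III members were at the edge of detection. WRKY38 and WRKY62, related genes whose products interact with a histone deacetylase and lower basal defence, had no more than 12 reads in any library. WRKY38 had 5, 2 and 6 reads in treated *jac1*, 12, 6 and 9 in non-treated *jac1*, 9, 10 and 0 in the treated wild type and 0, 0 and 0 in the non-treated wild type. It was called higher after UV-C in the wild type (adjusted p = 0.00256) against a group with no read, and no fold is given, because the third treated library had no read either. A floor of 3 reads a library was used throughout, and a group with no library above it gives no fold. That call was lost without the first or the second treated wild-type library (adjusted p = 0.012 and 0.0125). WRKY62 had 4, 7 and 12 reads in treated *jac1* and 0, 4 and 2 in non-treated *jac1*, with 1, 6 and 7 and 1, 3 and 1 in the treated and non-treated wild type, and its call in *jac1* (log2 FC 2.81 ± 0.79, adjusted p = 0.00707) was lost when the first or the third non-treated or the second or the third treated *jac1* library was left out, with log2 FC between 2.20 and 3.73 over the fits that leave out 1 library. WRKY41, the paralog of WRKY53, had 0, 0 and 10 reads in treated *jac1*, 0, 0 and 0 in non-treated *jac1*, 1, 1 and 0 in the treated wild type and 0, 0 and 2 in the non-treated wild type, and was the single member that did not pass the filter of 5 reads in 3 libraries. WRKY55 was not called, with log2 FC of 0.91 ± 0.49 in *jac1* and 1.21 ± 0.46 in the wild type.

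**Figure D3:**
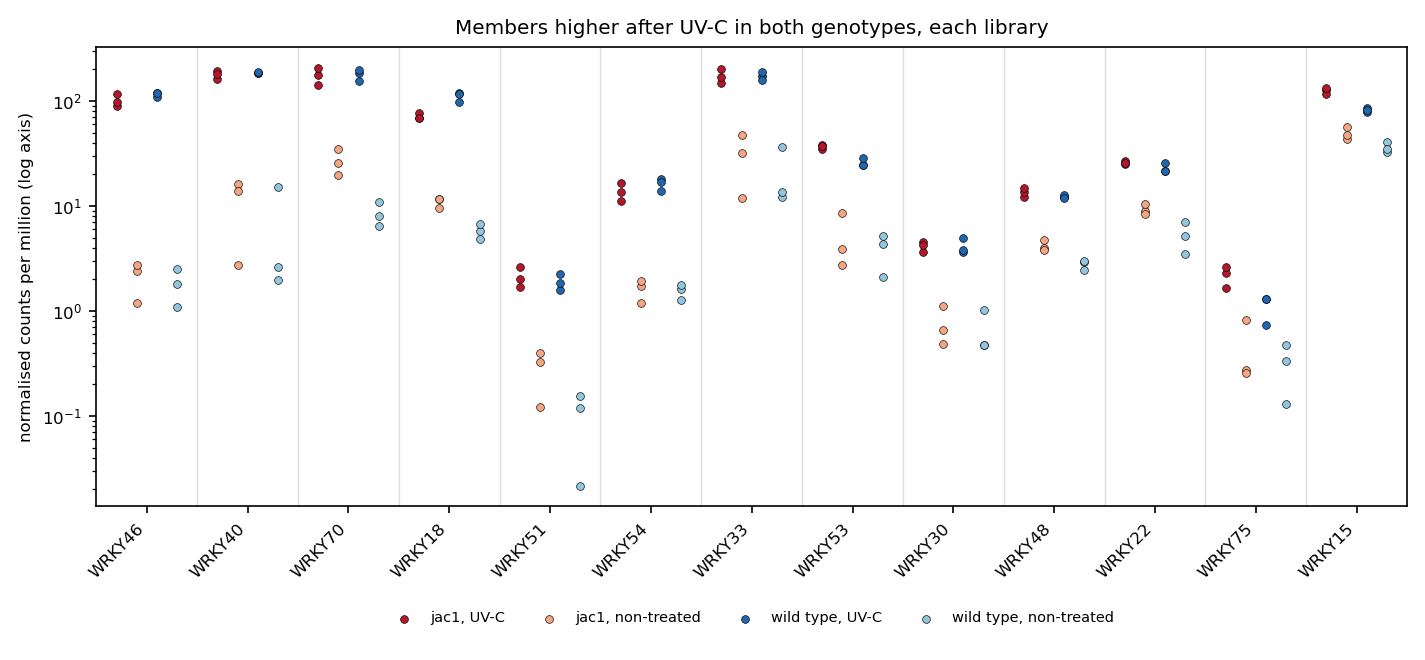
Normalised CPM (log axis) of the 13 members that were DEGs after UV-C in both genotypes, 1 point a library, with treated *jac1*, non-treated *jac1*, the treated wild type and the non-treated wild type from left to right within each gene. The non-treated values of WRKY40 and WRKY33 spread widely within each genotype, whereas the treated values lay close together, between 162 and 193 CPM in *jac1* and between 184 and 191 CPM in the wild type for WRKY40.

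Group IIa consists of WRKY18, WRKY40 and WRKY60, whose products form complexes with each other and restrain defence against powdery mildew. In *jac1*, WRKY40 had 162, 193 and 179 CPM after UV-C, against 2.76, 16.2 and 13.8 CPM without it. The treated wild type had 187, 184 and 191 CPM, against 2.65, 15.1 and 1.96 CPM in non-treated plants. The log2 FC were 4.04 ± 0.60 and 4.83 ± 0.63 (adjusted p = 5.87e-05 in *jac1* and 3.12e-05 in the wild type). Non-treated levels were uneven within a genotype, since the second wild-type library and the second and the third *jac1* libraries were several times above the others, and without the second non-treated wild-type library the wild-type log2 FC was 6.33. In *jac1*, WRKY18 had 69.0, 77.0 and 69.1 CPM after UV-C, against 9.51, 11.6 and 11.7 CPM without it. The treated wild type had 120.1, 98.8 and 118 CPM, against 5.82, 6.7 and 4.8 CPM in non-treated plants. WRKY18 rose in both, with log2 FC of 2.71 ± 0.11 in *jac1* and 4.28 ± 0.12 in the wild type (adjusted p = 3.11e-10 and 6.50e-12), and its non-treated libraries lay close together. WRKY60 behaved differently. Its levels were 3.84, 2.47 and 3.08 CPM in treated and 5.32, 5.42 and 6.79 CPM in non-treated *jac1*, and 4.41, 4.09 and 3.75 CPM in the treated and 5.15, 5.3 and 4.93 CPM in the wild type without UV-C, and the log2 FC of −0.89 ± 0.16 in *jac1* had an adjusted p of 2.26e-04 but missed the fold threshold. It passed that threshold with library totals alone (−1.20), without the first treated *jac1* library (−1.07) and, narrowly, with a block by library number.

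In group I, WRKY33, which is needed for camalexin synthesis and for resistance to *Botrytis cinerea* and is phosphorylated by the kinases MPK3 and MPK6, was the single member of its group called higher in both genotypes. In *jac1*, WRKY33 had 149, 169 and 203 CPM after UV-C, against 12.002, 32.0 and 47.0 CPM without it. The treated wild type had 173, 159 and 190.3 CPM, against 12.3, 36.4 and 13.6 CPM in non-treated plants. The same 3 non-treated libraries that were high for WRKY40 were high for WRKY33. The log2 FC were 2.52 ± 0.43 in *jac1* and 3.07 ± 0.44 in the wild type (adjusted p = 1.66e-04 and 6.47e-05), and the wild-type value was 3.75 without the second non-treated library. WRKY3, which contributes with WRKY4 to resistance to necrotrophic fungi, was the only member called lower. It had 16.6, 17.5 and 14.2 CPM in treated and 30.6, 30.2 and 28.8 CPM in non-treated *jac1*, and 18.4, 19.6 and 20.5 CPM in the treated and 43.6, 43.4 and 37.4 CPM in the non-treated wild type. It fell in the wild type, with a log2 FC of −1.09 ± 0.08 (adjusted p = 1.42e-07), and its log2 FC of −0.89 ± 0.08 in *jac1* (adjusted p = 8.59e-07) missed the fold threshold, which it passed with library totals alone (−1.20). In both genotypes no treated library reached the lowest non-treated one. WRKY1, WRKY2, WRKY4 and WRKY20 had log2 FC between −0.33 and 0.36, and WRKY25 and WRKY26, which act with WRKY33 in heat tolerance, are described with the genotype comparison.

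Group IIc holds 10 members. WRKY51, which with WRKY50 represses jasmonate responses when oleic acid is low, was scarce, with 1.68, 2.01 and 2.62 CPM in treated and 0.121, 0.327 and 0.398 CPM in non-treated *jac1*. In the wild type it had 1.57, 2.27 and 1.85 CPM after UV-C and 0.0217, 0.118 and 0.156 CPM without it, and log2 FC of 2.91 ± 0.39 and 4.26 ± 0.46 (adjusted p = 2.35e-05 in *jac1* and 5.09e-06 in the wild type). Since the non-treated wild-type libraries held 1, 5 and 6 reads, the size of the wild-type value is loosely set. WRKY48, a repressor of basal defence, had 12.2, 13.5 and 14.7 CPM in treated and 3.94, 3.79 and 4.75 CPM in non-treated *jac1*. The wild-type values of WRKY48 were 12.1, 12.8 and 11.998 CPM after UV-C and 2.91, 3.01 and 2.45 CPM without it, and it rose by a log2 FC of 1.69 ± 0.11 in *jac1* and 2.14 ± 0.12 in the wild type (adjusted p = 3.21e-08 and 5.87e-09).

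WRKY75 and WRKY45 are paralogs that act in phosphate uptake and senescence. WRKY75 had 2.3, 1.66 and 2.62 CPM in treated and 0.823, 0.273 and 0.256 CPM in non-treated *jac1*, and 1.3, 1.29 and 0.74 CPM in the treated and 0.478, 0.331 and 0.13 CPM in the non-treated wild type. It was higher in *jac1* by a log2 FC of 2.25 ± 0.43 (adjusted p = 4.92e-04), or 3.04 without the first non-treated *jac1* library. The call in the wild type (log2 FC 1.80 ± 0.48, adjusted p = 0.00717) was lost when the second or the third non-treated or the first or the second treated library was left out, with adjusted p between 0.02 and 0.0301. WRKY45 had 9.49, 7.74 and 9.4 CPM in treated and 3.24, 3.57 and 3.15 CPM in non-treated *jac1*, and 6.21, 7.07 and 4.92 CPM in the treated and 5.08, 3.41 and 3.52 CPM in the non-treated wild type. It rose in *jac1* (log2 FC 1.42 ± 0.17, adjusted p = 8.43e-06), while the wild-type value of 0.60 ± 0.17 was not called (adjusted p = 0.0104). The 2 responses of WRKY45 differed by 0.82 ± 0.24 with an adjusted p of 0.024, which did not pass the threshold. WRKY13, WRKY23 and WRKY57 were not called in either genotype and had log2 FC between −0.15 and 0.54.

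Among the calmodulin-binding group IId, WRKY15, which affects growth under salt and osmotic stress, was already abundant and rose further. In *jac1*, WRKY15 had 127, 116 and 134 CPM after UV-C, against 43.6, 47.97 and 56.3 CPM without it. The treated wild type had 85.8, 78.6 and 82.9 CPM, against 32.8, 40.9 and 35.2 CPM in non-treated plants. The log2 FC were 1.35 ± 0.10 and 1.18 ± 0.10 (adjusted p = 6.48e-08 in *jac1* and 4.07e-07 in the wild type), with little spread. WRKY11, a negative regulator of resistance to *P. syringae*, had 56.0, 57.9 and 52.9 CPM in treated and 20.6, 21.3 and 28.6 CPM in non-treated *jac1*, and 48.3, 52.4 and 51.5 CPM in the treated and 22.9, 33.6 and 25.1 CPM in the non-treated wild type. It was called in *jac1* (log2 FC 1.24 ± 0.14, or 0.93 with library totals alone, adjusted p = 3.54e-06), and in the wild type its log2 FC of 0.90 ± 0.13 (adjusted p = 1.01e-04) was short of the fold threshold, which it passed without the second non-treated library (1.08). The difference between the 2 responses was 0.34 ± 0.19 (adjusted p = 0.214), so WRKY11 was not shown to differ by genotype. WRKY21, WRKY39 and WRKY74 were not called, although WRKY39 passed on its p alone, with log2 FC of −0.75 ± 0.07 in *jac1* and −0.52 ± 0.07 in the wild type (adjusted p = 6.97e-07 and 2.28e-05).

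In group IIe, WRKY22, which with WRKY29 acts below the kinase cascade triggered by bacterial flagellin, rose in both genotypes. It had 25.0, 26.7 and 25.7 CPM in treated and 8.93, 10.4 and 8.38 CPM in non-treated *jac1*, and 21.7, 21.7 and 25.5 CPM in the treated and 5.17, 6.98 and 3.49 CPM in the non-treated wild type. The log2 FC were 1.48 ± 0.16 in *jac1* and 2.13 ± 0.17 in the wild type (adjusted p = 3.44e-06 and 2.70e-07). The other 4 members of group IIe were not called. In group IIb, which includes regulators of phosphate homeostasis and senescence such as WRKY6 and WRKY42, WRKY6 came nearest to a call, with a log2 FC of 0.86 ± 0.14 in *jac1* (adjusted p = 1.41e-04) and 0.37 ± 0.15 in the wild type (adjusted p = 0.0527). WRKY47 had the opposite sign, with −0.38 ± 0.08 in *jac1* and −0.80 ± 0.09 in the wild type (adjusted p = 0.00137 and 5.37e-06), again under the fold threshold. Over the 27 members called in neither genotype, the log2 FC ran between −0.97 and 0.91 in *jac1* and between −0.80 and 1.21 in the wild type. Of 20 further genes that the reference names WRKY and a number, 10 could be tested and none was a DEG in any comparison by edgeR's quasi-likelihood test (after UV-C, 3 had an unadjusted p under 0.05 in *jac1* and 1 in the wild type, and between genotypes 7 did in non-treated and 4 in treated rosettes, and 0 by the interaction). The share of all genes at that unadjusted cut is not given, so these counts are not read as a result about the further genes.

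Paralogs were set side by side within each library. The ratio of 1 paralog to the other within a library was compared between treated and non-treated libraries for 22 pairs in each genotype. With 3 libraries against 3, the two-sided exact permutation test cannot go below 0.1, a value reached in 34 of the 44 comparisons, and after adjustment over the 44 the smallest p was 0.129, so that none can pass a threshold of 0.05. The sizes are therefore given as descriptions. Some genes entered more than 1 pair, and the same count over other gene pairs was not taken. Calls differed between the paralogs in at least 1 genotype for 13 pairs, counting WRKY41 and WRKY53, of which WRKY41 was not tested. A differing call can rest on the fold threshold alone, as for WRKY25 in *jac1* (log2 FC 0.75, adjusted p = 2.32e-05 by the quasi-likelihood test).

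WRKY18 and WRKY60 share 70.2% of aligned residues of the proteins translated from the reference, and of this pair WRKY18 alone was called. The log2 ratio of WRKY18 to WRKY60 was 4.003, 4.71 and 4.28 in treated *jac1*, against 0.78, 1.03 and 0.75 in non-treated *jac1*. In the wild type it was 4.62, 4.43 and 4.80 after UV-C and 0.16, 0.31 and −0.04 without it. The log2 ratio was thus at most 1.03 in every non-treated library and over 3.9 in every treated one, a shift of 3.48 in *jac1* and 4.47 in the wild type. WRKY40 against WRKY60 shifted by 5.09 in *jac1* and 5.54 in the wild type, or 6.35 in the wild type without the second non-treated library.

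The lysine-codon pair parted as well. WRKY50 had 1.53, 1.66 and 2.16 CPM in treated and 3.75, 3.63 and 3.07 CPM in non-treated *jac1*, and 2.65, 2.31 and 2.27 CPM in the treated and 3.04, 2.34 and 3.57 CPM in the non-treated wild type. Its log2 FC of −0.97 ± 0.20 in *jac1* (adjusted p = 7.31e-04) was just short of the fold threshold, and passed it with library totals alone (−1.27), with only the samples compared (−1.01) and without the third non-treated or the third treated *jac1* library (−1.05 and −1.13). WRKY51 rose, and the log2 ratio of WRKY50 to WRKY51 shifted by −2.54 in *jac1* and −2.24 in the wild type. These low levels make the size depend on the 0.5 CPM added before the ratio was taken, and it was −3.52 in *jac1* and −3.66 in the wild type with 0.1 CPM, and −1.38 and −1.06 with 2 CPM. Before treatment WRKY50 was the more abundant of the pair in all 6 libraries, and after it the ratio lay between −0.23 and 0.60 in all 6.

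Of the flagellin pair, WRKY29 had 2.59, 1.49 and 2.003 CPM in treated and 2.15, 2.67 and 1.96 CPM in non-treated *jac1*, and 2.7, 1.47 and 1.74 CPM in the treated and 2.3, 2.22 and 2.45 CPM in the non-treated wild type. These levels overlapped, and the ratio of WRKY22 to WRKY29 shifted by 1.58 in *jac1* and 2.31 in the wild type. WRKY7, the paralog of WRKY15 and likewise a calmodulin-binding protein, had 13.2, 11.2 and 13.5 CPM in treated and 12.3, 11.3 and 12.1 CPM in non-treated *jac1*, and 17.2, 15.2 and 14.9 CPM in the treated and 19.8, 21.6 and 26.4 CPM in the non-treated wild type. Its log2 FC were 0.09 ± 0.11 in *jac1*, whose sign turned to −0.22 when libraries were scaled by their totals alone, and −0.52 ± 0.10 in the wild type. The ratio of WRKY7 to WRKY15 shifted by −1.27 and −1.68 in the same order.

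WRKY4, the paralog of WRKY3, was not called in either genotype. It had 32.8, 32.5 and 26.9 CPM in treated and 27.9, 28.3 and 26.3 CPM in non-treated *jac1*, and 22.3, 23.9 and 21.3 CPM in the treated and 26.8, 24.7 and 24.3 CPM in the non-treated wild type. The ratio of WRKY3 to WRKY4, whose proteins share 76.0% of aligned residues, shifted by −1.03 in *jac1* and −0.90 in the wild type, with a log2 ratio below 0 in every treated library and above 0 in every non-treated one. WRKY17, which shares 79.3% with WRKY11, had 7.82, 8.2 and 9.7 CPM in treated and 8.3, 6.73 and 7.16 CPM in non-treated *jac1*, and 16.7, 14.6 and 12.6 CPM in the treated and 10.7, 9.51 and 11.9 CPM in the non-treated wild type. The ratio of WRKY11 to WRKY17 shifted by 1.04 in *jac1* and 0.47 in the wild type, where treated and non-treated libraries overlapped. WRKY25 against WRKY33 shifted by −1.96 in *jac1* and −3.41 in the wild type.

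The other pairs with differing calls, and the related pair of WRKY54 and WRKY70, were read in the same way. WRKY54 and WRKY70 both rose, and their log2 ratio shifted by 0.05 in *jac1*, or −0.52 with 2 CPM added, and by −1.32 in the wild type. WRKY45 and WRKY75 shifted by −0.25 in *jac1* and −0.44 in the wild type, and with 2 CPM added the sign in *jac1* turned, with 0.25. WRKY25 against WRKY26 shifted by −0.77 and −0.41, and WRKY8 against WRKY28 by −0.90 and −0.21, in *jac1* and the wild type. The ratio of WRKY41 to WRKY53 shifted by −2.52 and −2.63, but with WRKY41 at or near 0 reads this is the change of WRKY53 against the prior of 0.5 CPM. WRKY38 against WRKY62 rested on too few reads. The 9 pairs with no difference in calls had shifts between −3.69 and 1.09, the largest in size being that of WRKY30 against WRKY46, of which both rose.

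**Figure D4:**
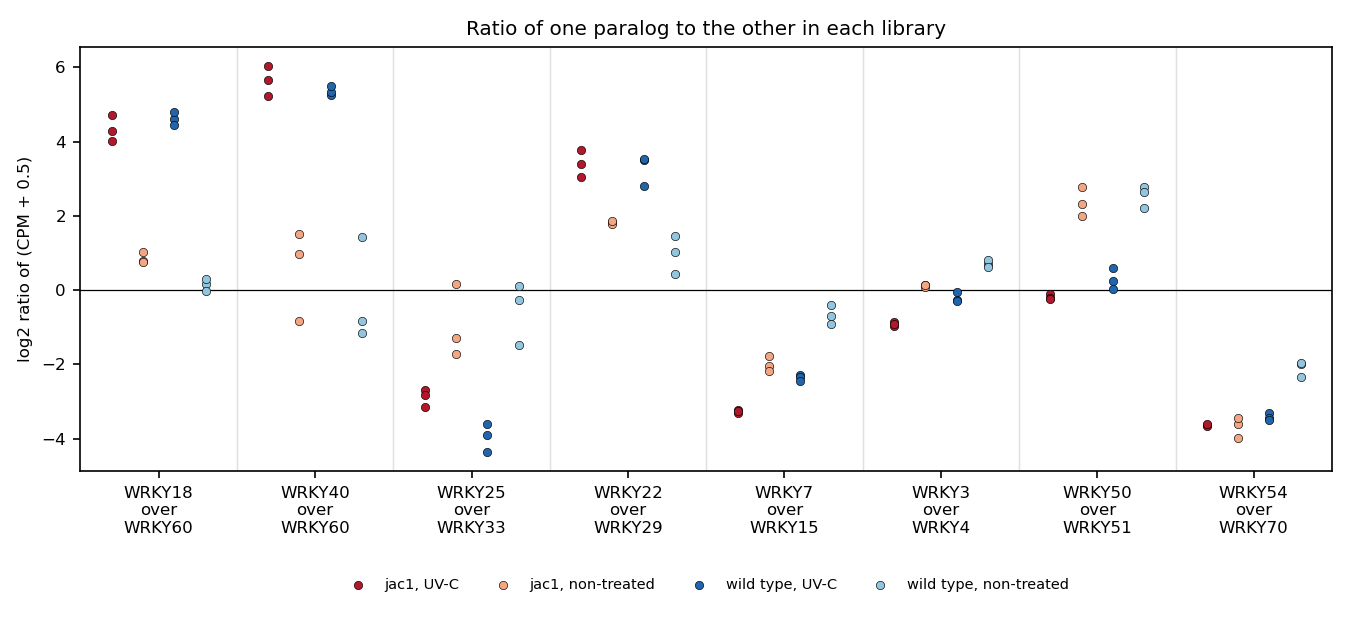
Log2 ratio of the normalised CPM of the first to the second paralog (each plus 0.5 CPM) in every library for 8 pairs, with treated *jac1*, non-treated *jac1*, the treated wild type and the non-treated wild type from left to right within each pair. Treated and non-treated libraries were apart in all but WRKY54 over WRKY70 in *jac1*, where the ratios lay between −3.97 and −3.44.

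The genotypes were compared directly, first without UV-C. Of the 47 members, 2 were DEGs in non-treated *jac1* against the non-treated wild type (4.26%, against 1.95% of all genes), WRKY70 and WRKY38, both higher in *jac1*. With library totals alone, 2 were called higher and 1 lower. WRKY70 had 19.9, 34.7 and 25.9 CPM in non-treated *jac1*, against 8.04, 10.98 and 6.41 CPM in the non-treated wild type, with no overlap and a log2 FC of 1.66 ± 0.22 (adjusted p = 1.34e-04). Same-numbered non-treated libraries of the 2 genotypes deviated together, and with a replicate block by title number the calls became 1, that of WRKY70 (log2 FC 1.64), WRKY38 being lost (adjusted p = 0.0143). With a block by library number, the WRKY70 call was lost (1.29, adjusted p = 0.0116). The WRKY38 call (adjusted p = 0.00877) set 12, 6 and 9 reads against none and was lost when any library other than the third treated wild-type one was left out. WRKY18 and WRKY22 had log2 FC of 0.92 ± 0.12 and 0.82 ± 0.17 (adjusted p = 1.76e-04 and 0.00463), and WRKY7 one of −0.92 ± 0.10 (adjusted p = 3.54e-05), all short of the fold threshold. In the same comparison 2 of 7 touch-responsive genes and 5 of 6 clock genes were DEGs, and TCH4 had 60.9, 67.7 and 25.5 CPM in non-treated *jac1*, against 7.04, 18.0 and 4.46 CPM in the non-treated wild type. Of the floral genes, AP3 and PI were lower in *jac1* in both conditions, at levels of at most 0.516 CPM in *jac1* and 1.38 CPM in the wild type. The summed level of the 5 root and flower genes was between 280 and 342 CPM in non-treated *jac1* and between 312 and 382 CPM in the non-treated wild type. Almost all of that sum was PYK10, at between 279 and 342 CPM and between 310 and 380 CPM in the same order. The sum therefore does not show the floral genes, of which AP3 had means of 0.027 and 0.37 CPM in these groups. The leaf gene LHCB2.3 was higher, with 772, 835 and 938 CPM in non-treated *jac1*, against 119, 152 and 207 CPM in the non-treated wild type. The other listed rosette genes did not move with it as a set. RBCS1A and RCA overlapped between these groups. MYB60 was higher in non-treated *jac1* (means of 17.6 and 14.2 CPM) and SUC2 was lower (means of 96.6 and 119 CPM). The part of these in the difference of WRKY70 was not tested.

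Between treated *jac1* and the treated wild type, 2 members were DEGs, or 4.26%, which is near the 4.21% of all genes and is not a result about the family. They were WRKY26 and WRKY25, the group I relatives of WRKY33 that act in heat tolerance. WRKY26 had 30.0, 33.1 and 27.9 CPM in treated *jac1* and 12.2, 13.96 and 11.7 CPM in the treated wild type, against 10.8, 10.4 and 9.95 CPM in non-treated *jac1* and 12.6, 11.03 and 9.07 CPM in the non-treated wild type. The treated *jac1* libraries were the high ones, and the other 9 libraries did not reach 15 CPM. WRKY25 was likewise highest in treated *jac1*, with 22.4, 23.2 and 22.4 CPM in treated *jac1* and 11.1, 12.6 and 8.77 CPM in the treated wild type, and 13.6, 12.8 and 13.98 CPM in non-treated *jac1* and 13.3, 12.8 and 11.2 CPM in the non-treated wild type. Log2 FC of treated *jac1* over the treated wild type were 1.26 ± 0.11 for WRKY26 and 1.06 ± 0.11 for WRKY25 (adjusted p = 1.66e-06 and 5.58e-06). Without the third treated wild-type library, that of WRKY25 was 0.94 and no longer a DEG, and with library totals alone it was 0.80, where 1 member was called higher and 1 lower.

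The UV-C response itself differed between genotypes for 4 members by the test of the interaction (8.51%, against 3.88% of all genes), namely WRKY26 and WRKY28, with the larger response in *jac1*, and WRKY18 and WRKY70, with the smaller one. With library totals alone, 1 was higher and 2 were lower. After UV-C, WRKY26 rose in *jac1* by a log2 FC of 1.54 ± 0.11 and had 0.21 ± 0.11 in the wild type, a difference of 1.33 ± 0.16 (adjusted p = 4.28e-05). WRKY28, which activates the salicylic acid synthesis gene ICS1, had 9.01, 9.17 and 8.11 CPM in treated and 3.1, 2.59 and 3.47 CPM in non-treated *jac1*, and 6.12, 5.42 and 5.55 CPM in the treated and 3.61, 4.5 and 4.15 CPM in the non-treated wild type. Its responses of 1.52 ± 0.13 in *jac1* and 0.48 ± 0.13 in the wild type differed by 1.04 ± 0.18 (adjusted p = 0.00114), which sat at the fold threshold and came to 0.96 without the second non-treated wild-type library and 0.94 without the second non-treated *jac1* library, and to 0.999 by DESeq2. Its paralog WRKY8 was low, with 0.911, 0.631 and 1.18 CPM in treated and 0.29, 0.491 and 0.739 CPM in non-treated *jac1* and 0.675, 0.489 and 0.264 CPM in the treated and 0.326, 0.402 and 0.235 CPM in the wild type without UV-C, and was not called.

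For WRKY18 both ends of the comparison differed, since *jac1* was higher than the wild type without UV-C and lower after it, with log2 FC of 0.92 ± 0.12 and −0.65 ± 0.10 (adjusted p = 1.76e-04 and 2.59e-04, both short of the fold threshold), and the responses differed by −1.56 ± 0.16 (adjusted p = 1.48e-05). For WRKY70 the treated levels overlapped, with 144, 177 and 207 CPM in treated *jac1* and 186, 156 and 198 CPM in the treated wild type, so that the log2 FC of 2.71 ± 0.21 in *jac1* and 4.402 ± 0.23 in the wild type (adjusted p = 1.09e-07 and 3.19e-09) started from non-treated levels that did not overlap, and their difference was −1.69 ± 0.29 (adjusted p = 8.91e-04). WRKY18 and WRKY70 were lowest in the non-treated wild type, the group that stood apart in TOC1. The interaction was passed by 5 of 6 clock genes as well, against 3.88% of all genes. The summed level of the 6 clock genes was between 856 and 903 CPM in treated *jac1*, between 1463 and 1681 CPM in non-treated *jac1*, between 1029 and 1047 CPM in the treated wild type and between 504 and 824 CPM in the non-treated wild type. This sum was mostly LHY and CCA1. Like TOC1, PRR5 and ELF4 were highest in the non-treated wild type, with means of 13.7 and 7.49 CPM. Their means were 2.29 and 0.0542 CPM in treated *jac1*, 0.928 and 0.434 in non-treated *jac1*, and 0.957 and 0.211 in the treated wild type. The part of the clock genes in these differences was not tested. For WRKY25 and WRKY2 the adjusted p of the interaction was 4.54e-04 and 1.51e-04, with differences of 0.94 ± 0.15 and 0.68 ± 0.09 that were below the fold threshold. By the adjusted p alone, 4 members had a higher and 2 a lower response in *jac1*, shares near the 8.31 and 5.09% of all genes, so this is not a result about the family.

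**Figure D5:**
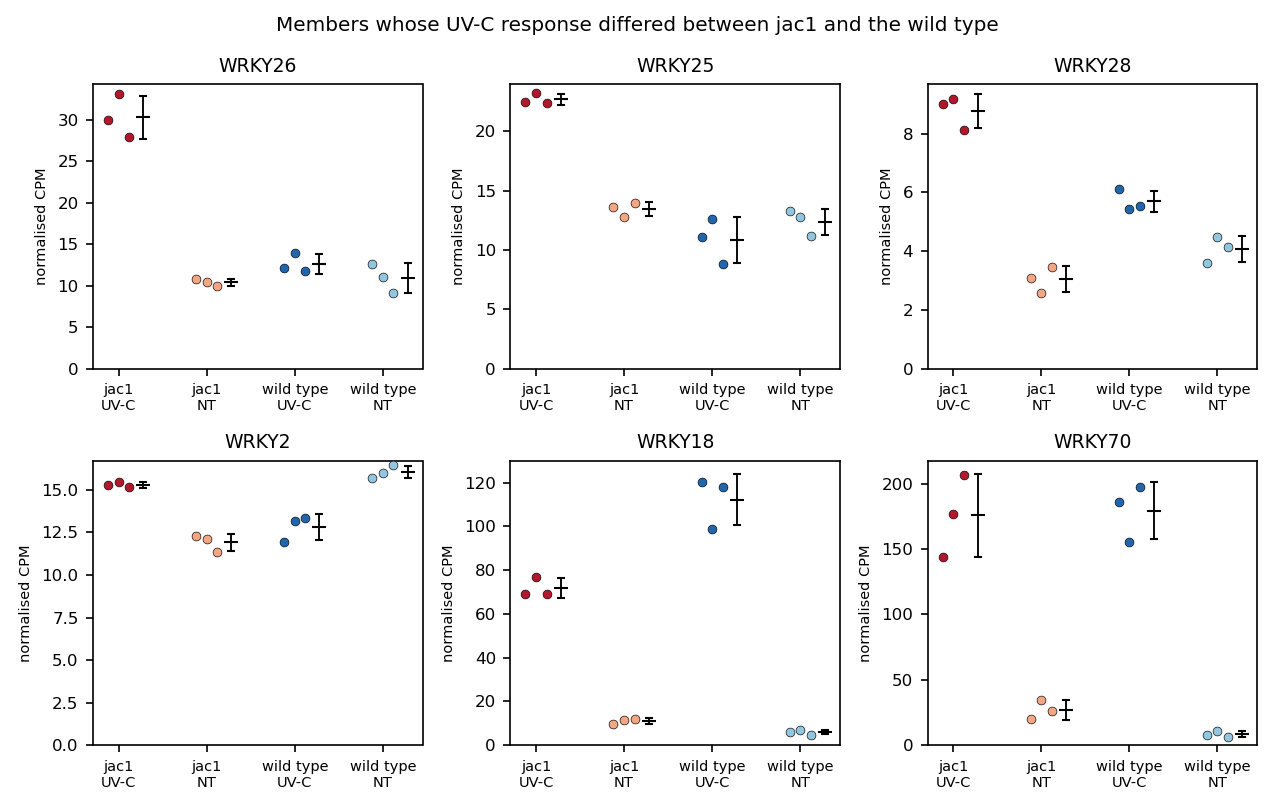
Normalised CPM of 6 members in every library of treated *jac1*, non-treated *jac1*, the treated wild type and the non-treated wild type, with a bar for the mean and SD of 3 libraries beside each group, on axes that begin at 0. WRKY26 and WRKY25 were high in treated *jac1* alone, whereas WRKY18 and WRKY70 were high in both treated groups.

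The W-box matches were read against these calls. Of the 13 members higher in both genotypes, 5 had at least 1 match (38.5%), against 43.8% of the 940 genes that were higher in both genotypes, and WRKY46, WRKY40, WRKY70, WRKY18, WRKY54 and WRKY51 were among those with none in this window. WRKY11, WRKY26, WRKY28, WRKY45 and WRKY62, called higher in *jac1* and not in the wild type, each had a match, against 30.8% of the 782 genes called in the same way. This set of 5 was singled out after its values were seen, the interaction passed for WRKY26 and WRKY28 among them, and the *jac1* calls of WRKY11 and WRKY62 were lost with library totals alone. In a window of 1000 bases before the start, also taken after the shorter one had been read, 39 of 48 members had a match (81.25%), against 67.3% of all genes, and 12 of the 13 did (92.3%), WRKY70 being without.

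Genes listed as partners or targets of the family were counted as well. The lists were chosen with earlier results of these data known, so the shares below are descriptions only. Of 10 listed mitogen-activated protein kinases and their activating kinases, only some of which act above WRKY22, WRKY29 and WRKY33, 4 were DEGs after UV-C in each genotype, all higher (40%, against 13.7% of all genes in *jac1* and 9.26% in the wild type). They were MPK11, with log2 FC of 4.30 ± 0.26 in *jac1* and 4.18 ± 0.27 in the wild type, MPK3, with 2.67 ± 0.12 and 2.75 ± 0.12, MKK6, with 1.57 ± 0.26 and 1.66 ± 0.25, and MKK4, with 1.06 ± 0.11 and 1.53 ± 0.11. MPK3 was the most abundant of these, with 393, 400.3 and 420.2 CPM in treated *jac1* and 52.1, 63.9 and 75.0 CPM in non-treated *jac1*, and 444, 413 and 435 CPM in the treated and 57.4, 74.8 and 59.8 CPM in the non-treated wild type. MPK4 and MPK6 transcripts were not called.

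VQ proteins bind WRKY domains and modify their activity. Of 9 listed, 7 could be tested and 5 were DEGs in each genotype, all higher (71.4%, against the same 13.7 and 9.26% of all genes). SIB1, a partner of WRKY33, changed most, with 90.0, 83.9 and 101 CPM in treated and 1.26, 2.7 and 2.7 CPM in non-treated *jac1*, and 92.9, 83.8 and 91.0 CPM in the treated and 2.13, 2.75 and 1.69 CPM in the non-treated wild type. The rise came to log2 FC of 5.39 ± 0.19 and 5.34 ± 0.19 (adjusted p = 5.85e-11 in *jac1* and 6.93e-11 in the wild type). The others were JAV1, VQ10, MKS1, which links WRKY33 to MPK4, and CAMBP25, with log2 FC between 1.89 and 3.43 in *jac1* and between 2.29 and 2.97 in the wild type.

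Of 13 genes listed as targets or outputs of WRKY factors, 5 were DEGs in *jac1* (38.5%, against 13.7% of all genes) and 3 in the wild type (23.1%, against 9.26%), all higher. GRX480, a glutaredoxin of salicylic acid signalling, had 31.4, 63.4 and 58.2 CPM in treated and 0.339, 0.191 and 0.568 CPM in non-treated *jac1*, and 39.0, 23.4 and 36.3 CPM in the treated and 0.217, 0.189 and 0.365 CPM in the non-treated wild type. NHL10 and ACS6, an ethylene synthesis gene, rose in both genotypes, with log2 FC of 3.03 ± 0.43 and 1.83 ± 0.35 in *jac1* and 2.84 ± 0.46 and 2.33 ± 0.36 in the wild type. FRK1, a marker of flagellin signalling, was called in *jac1* and not in the wild type, with 1.81 ± 0.39 in *jac1* and 1.36 ± 0.47 in the wild type, and an adjusted p of 0.642 for the difference. PDF1.2, an ethylene and jasmonate marker, was called in *jac1* and not in the wild type, on uneven libraries, with 0.192, 2.52 and 13.2 CPM in treated and 0.145, 0.0545 and 0.199 CPM in non-treated *jac1*, and 0.0899, 0.133 and 0.423 CPM in the treated and 0, 0.0473 and 0.0782 CPM in the non-treated wild type. FRK1 and PDF1.2 were also DEGs between treated *jac1* and the treated wild type, by 1.56 ± 0.41 and 4.67 ± 1.12, and in neither case did the interaction pass (adjusted p = 0.642 and 0.518). PAD3 and CYP71A13, of camalexin synthesis, and PR1 were not called in either genotype at 30 min.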

How the data were processed

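Whole-rosette poly-A RNA of 12 samples was sequenced from a stranded mRNA library. Per the file headers and labels, the authors aligned reads with STAR 2.5.2b to Araport11 and deposited raw counts per gene from featureCounts 1.6.2, counted without strand and without multi-mapping or overlapping reads, so near-identical and overlapping genes may be undercounted and antisense reads cannot be told apart.

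Counts were analysed with edgeR 4.0.16 in R 4.3.3. The 20099 protein-coding genes that reached 5 reads in 3 or more libraries were scaled by the trimmed mean of M-values and tested over all 12 samples with the quasi-likelihood F-test, 1 mean a group, with Benjamini-Hochberg adjustment over all genes. DEGs had an adjusted p under 0.01 and an absolute log2 FC over 1, and SEs are the log2 FC over the root of F. CPM use the scaled library sizes. A group with 3 or fewer reads in every library is at the floor. The study's likelihood ratio test and DESeq2 1.42.0 were alternatives. Scripts were tested on simulated data. By title number, the 3 same-numbered pairs of non-treated libraries of the genotypes had correlated deviations (0.35, 0.11 and 0.22), although the labels state no pairing. p-values measure the spread between these biological replicates.

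Values in every library are given for the 12 members that were DEGs with the largest absolute log2 FC after UV-C in the wild type, members that were DEGs by genotype or interaction, and pairs with differing calls; WRKY2, WRKY6, WRKY39, WRKY47 and WRKY55 were named after their values were seen. The members, lists and tests were chosen with earlier results of these data known. Promoter windows and proteins were read from the TAIR10.1 genome and RefSeq annotation with Biopython 1.88; 27435 of 27439 nuclear protein-coding genes had the same start and end in the deposited table.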

Additional observations from a re-analysis of the deposited data

Results flagged for a closer look

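The UV-C response differed between *jac1* and the wild type, by the test of the interaction in edgeR with 3 libraries a group and an adjusted p under 0.01, for 6 members. The response in *jac1* minus that in the wild type was −1.56 on the log2 scale for WRKY18 (adjusted p = 1.48e-05), 1.33 for WRKY26 (adjusted p = 4.28e-05), 0.68 for WRKY2 (adjusted p = 1.51e-04), 0.94 for WRKY25 (adjusted p = 4.54e-04), −1.69 for WRKY70 (adjusted p = 8.91e-04) and 1.04 for WRKY28 (adjusted p = 0.00114). WRKY2 had 15.3, 15.5 and 15.1 CPM in treated *jac1* and 12.3, 12.1 and 11.4 CPM in non-treated *jac1*, against 11.96, 13.2 and 13.4 CPM in the treated and 15.7, 16.02 and 16.5 CPM in the non-treated wild type, with log2 FC of 0.36 ± 0.07 in *jac1* and −0.33 ± 0.07 in the wild type, both under the fold threshold. Of all genes, 8.31% had a higher and 5.09% a lower response in *jac1* at the same adjusted p, so 4 higher and 2 lower of 47 members is near the background and not a result about the family. With 3 libraries a group, no test for outlying values was made.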

How the results depend on the processing

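After UV-C the number of member DEGs was between 17 and 20 in *jac1* and between 14 and 16 in the wild type over 10 alternatives (the study's likelihood ratio test, DESeq2, other size factors, other filters, nuclear genes, only the samples compared and the replicate blocks), beside 18 and 15, and 27 and 22 with no fold threshold. The share of all genes called with no fold threshold is not given for the UV-C comparisons or for those between genotypes. The counts of members at that cut are therefore not read as a result about the family. Leaving out 1 library gave between 17 and 19 in *jac1* and between 13 and 15 in the wild type. Of these calls, 16 of 18 in *jac1* and 13 of 15 in the wild type held under every alternative. With library totals alone the median of all genes shifted to −0.26 in *jac1* and −0.15 in the wild type, 37.8 and 62.0% of DEGs among all genes were higher (65.3 and 75.6% otherwise), and WRKY4, WRKY17 and WRKY7 had −0.15, −0.10 and −0.22 in *jac1*, with the opposite sign. Between non-treated genotypes the 2 calls became 10 with no fold threshold, 5 by the likelihood ratio test, 1 with edgeR's own expression filter, 1 with a replicate block by title number and 0 with a block by library number, where WRKY70 had 1.29 (adjusted p = 0.0116), and between 1 and 3 without 1 library. Between treated genotypes the 2 calls became 11 with no fold threshold, 1 with the library-number block and between 1 and 2 without 1 library. The interaction gave between 3 and 6 calls over the alternatives and between 3 and 5 without 1 library, and WRKY28 fell under the fold threshold with DESeq2 (0.999), its size factors (0.998), library totals (0.88) and the library-number block (0.91). WRKY25 between treated genotypes did so with library totals (0.80) and that block (0.98). WRKY75 in the wild type and WRKY62 in *jac1* lost their calls with library totals (adjusted p = 0.011 and 0.0122), and WRKY11 in *jac1* went under the fold threshold (0.93). Without 1 library, WRKY29 in *jac1* ran between −0.365 and 0.025 (the second treated library left out) and WRKY38 in *jac1* between −0.379 and 0.196 (the second treated left out, or 0.10 without the first non-treated), and WRKY45 over WRKY75 in the wild type 0.0028 with 2 CPM added, all crossing 0. Of the 44 pair comparisons, 34 had no overlap of ratios, 31 with 0.1 CPM and 36 with 2 CPM added, and between 34 and 36 without 1 library. No share over other gene pairs was taken beside these counts, so they are not a result about paralogs. W-box matches were in 18 members, or 39 in 1000 bases, a window chosen after seeing the data. Over all groups, deviations of same-numbered samples correlated between −0.16 and 0.35 over 18 pairs by title number, 5 of them over 0.1, and between −0.20 and 0.11 over 10 pairs by library number. Correlations of differently numbered samples were not taken, so these values cannot decide whether the numbers pair the samples. The cause of the changes over the alternatives was not tested. Depth limited WRKY38, WRKY41, WRKY62 and WRKY72, which had at most 12 reads in any library.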
